A study of Homo sapiens with 4 samples.

Results

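The regions described here are CTCF binding regions of K562 cells that had a peak in both daunorubicin libraries and in neither aclarubicin library. They were found by merging the peaks of all 4 deposited lists wherever these shared at least 1 bp, on chromosomes 1 to 22 and X, and by keeping the merged regions with that pattern of calls. Of 13959 merged regions, 443 had the pattern (3.17%). They made up 9.09% of the 4871 regions called in both daunorubicin libraries, the daunorubicin consensus (95% Wilson interval 8.32% to 9.93%, which covers counting error only). The regions were thus chosen by the authors' peak calls in the same 4 lists, so their number and the strength of their peaks are descriptions, and nothing was tested with them.

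K562 is an established line of human erythroleukaemia cells. By their labels, the cultures received either 10 µM aclarubicin or 10 µM daunorubicin for 4 h before chromatin immunoprecipitation with sequencing (ChIP-seq) for CTCF, with 2 biological replicates per drug. No untreated library was analysed here, so a region without an aclarubicin peak may have been gained under daunorubicin or lost under aclarubicin. It may also have been bound under both drugs and not called in the aclarubicin lists. These cannot be told apart.

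CTCF is a zinc-finger protein that binds a long GC-rich DNA motif. Together with the ring-shaped cohesin complex it holds the bases of many chromatin loops, and it insulates neighbouring domains, for example at imprinted genes. Daunorubicin and aclarubicin are anthracyclines, planar sugar-bearing drugs that slide between the base pairs of DNA. Daunorubicin also traps topoisomerase II on cut DNA and so leaves double-strand breaks, whereas aclarubicin blocks the enzyme earlier and leaves few.

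The lists held 5886 and 6638 peaks for daunorubicin replicates 1 and 2, and 10633 and 10711 for aclarubicin replicates 1 and 2. A longer list leaves fewer places without a peak, so the number of daunorubicin-only regions depended on list length. When each list was reduced to its strongest 5886 peaks by p-value, 984 regions had the pattern, 21.2% of the regions called in both daunorubicin libraries. A single daunorubicin list also gave more of them, 1071 without daunorubicin replicate 1 and 831 without replicate 2. The lists give no read totals. A fragment number over each summit and a local background in fragments were solved from each peak's fold and p, with a formula that is assumed and given with the processing.

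Most of the 443 regions were weak to middling peaks. Their fold enrichment over background, the authors' value for each peak, had a median of 6.51 in daunorubicin replicate 1 (range 2.02 to 20.2) and 7.15 in replicate 2 (range 2.26 to 17.2). The regions called in all 4 libraries had medians of 7.93 and 8.80 in the same lists. Ranked within its own list from 0 (weakest) to 100, the median daunorubicin-only peak stood at percentile 37.9 and 39.7, against 60.4 and 63.1 for peaks of the regions called in all 4. Of the 443, 230 (51.9%) lay below the median fold of both lists and 95 (21.4%) above it in both. Only 3 (0.677%) were among the strongest 10% of both lists.

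**Figure D1:**
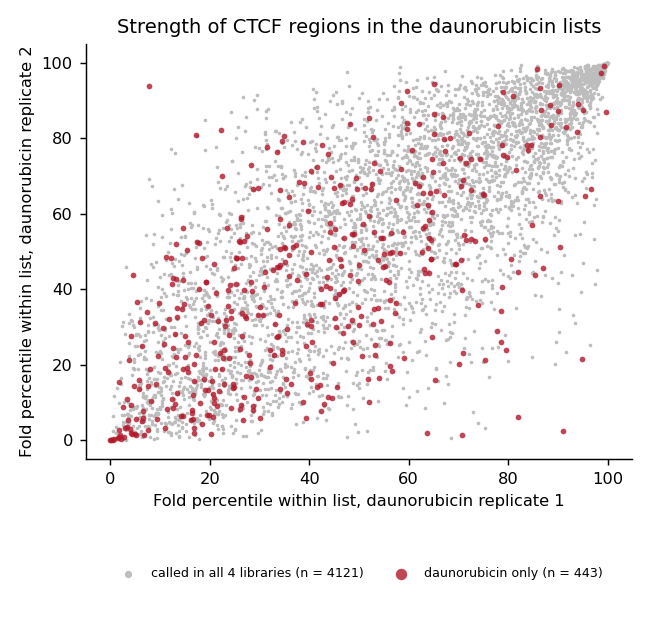
Fold percentile of each region within the list of daunorubicin replicate 1 (x axis) and replicate 2 (y axis), in percent, for the 443 daunorubicin-only regions and the 4121 regions called in all 4 libraries. Each point is a region; the daunorubicin-only regions fill the lower and middle ranks, and 3 lie above 90 in both lists.

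The share of daunorubicin-only regions fell with strength along the whole range. The regions called in both daunorubicin libraries were ordered by mean fold percentile and divided into 10 groups of 487 or 488. In the weakest group, 87 of 488 were daunorubicin-only (17.8%, interval 14.7% to 21.5%). In the fifth it was 55 of 487 (11.3%), and in the strongest 7 of 487 (1.44%, interval 0.698% to 2.94%). The share called in all 4 libraries ran the other way, from 74.2% in the weakest group to 97.3% in the strongest.

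**Figure D2:**
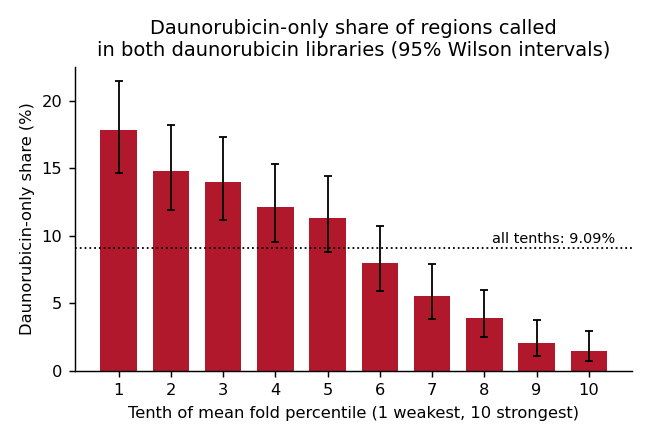
Share of daunorubicin-only regions (y axis, percent) among the regions called in both daunorubicin libraries, in 10 groups ordered by mean fold percentile (x axis, 1 weakest). Bars are shares and whiskers are 95% Wilson intervals; the share goes from 17.8% to 1.44%.

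Most of the peaks lay well above the threshold of their lists. The deposited −log10 q had a median of 14.1 in replicate 1 and 15.0 in replicate 2. It was at least 5 in both libraries for 430 of the 443 regions (97.1%) and at least 10 in both for 295 (66.6%). With the cut of 5 set on the daunorubicin lists only, daunorubicin-only regions made up 8.95% of the consensus, against 9.09% without it. For the cut of 10 in both libraries, shares of the other classes are not given here. Peaks of the regions called in all 4 had higher values, with medians of 22.4 and 25.4 and 10th percentiles of 10.3 and 11.1. The lowest values at the 443 regions were 2.67, 3.76 and 4.15 in replicate 1, where the list itself ended at 2.21. In replicate 2 they were 2.52, 3.54 and 3.64, where the list ended at 2.06. The median number of fragments over the summit was 30 in replicate 1 and 29 in replicate 2, against 41 and 43 at the regions called in all 4.

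Just outside the rule stood 2 kinds of regions. In 1 kind, 1013 regions had a peak in a single daunorubicin library and in no aclarubicin library, and these peaks had median folds of 5.08 (387 peaks, replicate 1) and 6.32 (626 peaks, replicate 2), below those of the 443. In the other, 307 regions were called in both daunorubicin libraries and in 1 aclarubicin library, with median folds of 7.03 and 7.48 in the daunorubicin lists. The single aclarubicin peak of such a region was weak in its own list, with a median fold of 5.86 in both replicates (percentiles 31.1 and 31.7), where aclarubicin peaks of the regions called in all 4 had medians of 10.3 and 10.2. How much aclarubicin signal lay at the 443 regions is unknown, since a place without a call has no deposited value.

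The strongest daunorubicin-only region by mean fold percentile was chr16:32051137-32051653 (coordinates 1-based in hg19, the build named in the submitters' processing notes). It had folds of 16.8 and 17.2 in daunorubicin replicates 1 and 2, from 44 and 46 fragments over a background of 1.67 and 1.73. The second, chr9:35882245-35882609, had folds of 15.0 and 14.9, with 40 fragments in each replicate and its summit at the same base in both. These replicates were nearly equal at both regions.

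The next regions varied more. At chr1:156186240-156186614 the replicates were far apart, with folds of 20.2 and 11.5 and with 240 and 86 fragments over the summit. Its −log10 q, 219 and 59.4, was the highest of the 443 regions in both replicates, above the 42.3 and 44.6 of the chromosome 16 region. No filter for regions of artefact signal was applied here, so whether this peak is CTCF binding or an artefact was not tested. At chr2:162107334-162107749 replicate 2 was the higher, with folds of 10.3 and 15.8, with 34 and 58 fragments. At chr6:17156371-17156723 the folds were 11.1 and 13.2, and no aclarubicin peak lay within 395875 bp. The region at chr3:93968372-93968702, with folds of 12.0 and 11.9, sat at the edge of the longest stretch of chromosome 3 that held no peak in any list. Its background, 1.66 and 1.36 fragments, was the lowest of the whole lists.

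Completing the 10 strongest, 4 regions had fold values in a narrow band. The folds were 12.4 and 11.6 at chr1:40804379-40804784, and 10.40 and 12.9 at chr11:118016000-118016405. They were 10.8 and 11.8 at chr11:10675842-10676296, and 11.05 and 11.6 at chr5:150180569-150180989. Fragments over the summit at these 4 numbered 48 to 67 in replicate 1 and 48 to 62 in replicate 2, so the replicates overlapped. No annotation of this build was used here, so whether a region lies in a gene or holds a CTCF motif was not analysed here, and no sequence is shown.

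The replicates ordered the daunorubicin-only regions less alike than the stronger shared ones. Across the 443 regions, Spearman's rho of the fold between the daunorubicin replicates was 0.62, and across the 4121 regions called in all 4 it was 0.78. These are across regions of the same 2 libraries, regions are not independent replicates, and a narrower range of strength lowers rho. The number of fragments was higher in replicate 1 at 232 regions, higher in replicate 2 at 185 and equal at 26. It differed by more than 1.5 times at 41 of the 443 (9.26%), and at 9.25% of the regions called in all 4. The regions furthest apart in rank, singled out after their values were seen, were chr4:110354277-110354926, with folds of 11.3 and 4.12 (65 and 16 fragments), and chr12:93896815-93897178, with folds of 4.46 and 12.99 (16 and 50 fragments). At the first of these the summits lay 366 bp apart, the largest distance among the 443.

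The summits of the replicates lay close together, which the rule partly fixes, since the peaks of both daunorubicin lists had to overlap. The summits of the 2 daunorubicin replicates lay a median of 21 bp apart at the 443 regions, and within 100 bp of each other at 430 (97.1%). At the regions called in all 4, the median was 17 bp and 98.1% lay within 100 bp. The regions were also divided by mean fold percentile into 3 groups, of equal size over all regions called in both daunorubicin libraries. The medians were then 28 bp against 26 bp in the weakest group, 18 bp against 18 bp in the middle group and 13 bp against 12 bp in the strongest (45 daunorubicin-only regions). The medians of the 2 classes thus lay within 2 bp of each other in each group. These groups match strength only roughly, since in the weakest one the daunorubicin-only regions lean to the weak end.

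Daunorubicin-only peaks were narrower than the peaks of the regions called in all 4. The median width was 281 bp against 337 bp in replicate 1, a difference of -56 bp, and 304 bp against 358 bp in replicate 2, a difference of -54 bp. The mean difference was -55.0 ± 1.41 bp (SD, n = 2 libraries). Other classes of low fold were narrow too. Regions called in both daunorubicin libraries and 1 aclarubicin library had median widths of 297 and 310 bp, and those of a single daunorubicin library 270 and 265 bp, so the daunorubicin-only regions lay between them. Width rises with strength. Each list was therefore divided by fold into 3 groups of equal size, and the difference from the regions called in all 4 was taken within each. In the weakest group it was -27.5 and -24 bp, in the middle group -38 and -42 bp, and in the strongest -63 and -57 bp. These groups match fold coarsely and fragments not at all: the median peak had 30 and 29 fragments in the daunorubicin-only regions and 41 and 43 in the regions called in all 4. The part of strength in the width difference was not tested. With 2 libraries no sign-flip p can fall below 0.5, so no test was made.

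The widest merged region, chr21:9825493-9826322, owed its 830 bp to replicate 1, whose peak spanned all of it with 292 fragments and a fold of 8.17. In replicate 2 the peak was 237 bp wide, with 85 fragments and a fold of 4.01. The next, chr2:114736981-114737802, was wide in replicate 2 (814 bp) and not in replicate 1 (272 bp), at folds of 6.37 and 6.26. The third, chr22:22862770-22863432, was 663 bp wide in replicate 1 and 304 bp in replicate 2. None of the 3 widest regions was wide in both replicates. The chromosome 21 region also had a high background, 34.9 fragments in replicate 1 and 20.5 in replicate 2. Whether its signal is an artefact was not tested.

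In the main setting, the median distance of daunorubicin-only regions from aclarubicin peaks lay between those of the regions called in all 4 and of the aclarubicin-only regions. It lay below that of the regions with a peak in a single daunorubicin library. The median distance to the nearest aclarubicin peak was 26.9 kb measured edge to edge in bp (26878), with quartiles of 8595 and 84664 bp. To the peaks of aclarubicin replicate 1 alone it was 36809 bp and to those of replicate 2 alone 34634 bp. For the regions called in all 4 libraries, the median distance to the nearest other aclarubicin-called region was 24631 bp, and for the 3326 aclarubicin-only regions it was 28177 bp. For the 1013 regions with a peak in a single daunorubicin library it was longer, 45355 bp. Without daunorubicin replicate 1, when replicate 2 alone defines the class, the median for daunorubicin-only regions was 43277 bp, and with lists of equal length 69490 bp. It was longer than in the main setting in all 10 other settings, from 29541 to 69490 bp. The other classes were not recomputed there, so their order holds for the main setting only. Within 10 kb of an aclarubicin-called region lay 124 of the 443 (28.0%, interval 24.01% to 32.3%), against 25.7% (24.4% to 27.1%) of the regions called in all 4 and 24.2% (22.8% to 25.7%) of the aclarubicin-only regions. These intervals overlap. Of the regions of a single daunorubicin library, 22.01% (19.6% to 24.7%) lay within 10 kb.

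**Figure D3:**
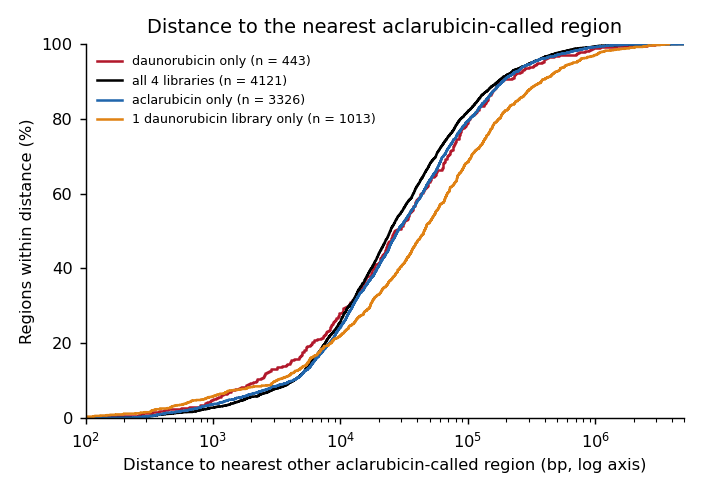
Share of regions (y axis, percent) whose nearest other aclarubicin-called region lies within a given distance (x axis, bp, log scale), for 4 classes of regions. The curve of the 443 daunorubicin-only regions runs near those of the regions called in all 4 and of the aclarubicin-only regions, while regions of a single daunorubicin library lie further away.

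Few regions of any class lay right beside an aclarubicin peak. Of the 443, 1 lay within 100 bp, 11 (2.48%) within 500 bp and 22 (4.97%) within 1 kb. Measured to the nearest other aclarubicin-called region, 5.19% of them lay within 1 kb (interval 3.48% to 7.67%). The share was 2.77% (2.31% to 3.31%) for regions called in all 4 and 3.73% (3.14% to 4.43%) for aclarubicin-only regions. For regions of a single daunorubicin library it was 5.82% (4.54% to 7.44%). The closest daunorubicin-only region was chr17:40729686-40730191, 13 bp from an aclarubicin peak, with folds of 5.20 and 4.84. It was followed by chr19:12798578-12798965 at 130 bp (folds 5.08 and 4.73), chr1:119683631-119684016 at 173 bp (4.03 and 4.23), chr22:19711126-19711573 at 256 bp (3.96 and 5.17) and chr19:56143032-56143348 at 267 bp (4.31 and 6.24). All 5 were below the median fold of the 443 in both replicates. Merging peaks up to 1 kb apart left 421 daunorubicin-only regions.

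At the other extreme, 93 regions lay over 100 kb from any aclarubicin peak and 5 over 1 Mb. The farthest was chr2:139585029-139585333, at 2952014 bp, with folds of 9.40 and 6.31 from 24 and 14 fragments. The second was chr3:93968372-93968702, described above, at 2529960 bp. The others were chr8:106785204-106785477 at 1442777 bp (folds 5.61 and 6.16, 16 fragments in each replicate), chr11:89938068-89938391 at 1317799 bp (9.08 and 8.93) and chr6:121376786-121377043 at 1088781 bp (7.52 and 9.54). Their strength was mixed: the chromosome 8 region lay below the median fold of the 443 in both replicates and the farthest one below it in replicate 2. In all 5 the background was below the median of the 443 in both replicates, at 2.19 fragments or fewer in replicate 1 and 1.91 or fewer in replicate 2.

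Over the whole set, the median background was lower in regions further from aclarubicin peaks. The 22 regions within 1 kb of an aclarubicin peak had a median fold of 5.76 and 5.99, and the 93 beyond 100 kb one of 7.53 and 7.91. The fragments ran the other way, with medians of 40.5 and 38 in the near regions and 25 and 24 in the far ones. The median background was 7.03 and 5.60 fragments near aclarubicin peaks, and 2.54 and 2.24 far from them. The higher fold of isolated regions thus went with a lower background and not with more fragments.

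The nearest aclarubicin-called region of a daunorubicin-only region was of no particular class. It was called in all 4 libraries for 144 of the 443 (32.5%) and aclarubicin-only for 128 (28.9%). Of all aclarubicin-called regions in the series, these classes made up 33.0% and 26.6%. The distance to the nearest region called in all 4 had a median of 102102 bp for daunorubicin-only regions, 97120 bp for aclarubicin-only regions and 79648 bp between the regions called in all 4 themselves. It was 178941 bp for regions of a single daunorubicin library.

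Few of the 443 regions lay close to another of their class. When regions up to 100 kb apart were chained together, 403 stood alone and the other 40 formed 20 pairs, with no longer chain. A smaller class is sparser, so its regions more often stand alone. Another region of the same class lay within 100 kb of 9.03% of the 443. The share was 11.2% for the 1013 regions of a single daunorubicin library. It was 46.8% for the 3326 aclarubicin-only regions and 55.0% for the 4121 called in all 4. The median distance from a daunorubicin-only region to the next was 1.30e+06 bp. Only 4 regions, in 2 pairs, had another within 10 kb. The closer pair was chr1:24525804-24526124 and chr1:24528403-24528942, 2279 bp apart, with folds of 5.13 and 5.87 at the first and 7.26 and 6.71 at the second. The other, chr19:1372063-1372369 and chr19:1377992-1378263, was 5623 bp apart. Of the 20 pairs, the first along chromosome 1 were chr1:3392652-3392969 with chr1:3481813-3482134, and chr1:16921250-16921572 with chr1:16971165-16971426. In the former the folds were 4.34 and 4.88 and then 5.07 and 8.25, and in the latter 3.88 and 4.27 and then 3.61 and 4.17.

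All 23 chromosomes held daunorubicin-only regions, from 3 on chromosome 13 to 69 on chromosome 1. As a share of each chromosome's regions called in both daunorubicin libraries, they lay between 4.13% and 11.7% on every chromosome but one. On chromosome 21 the share was 13 of 63 (20.6%, interval 12.5% to 32.2%). On chromosome 16 it was the lowest, 10 of 242 (4.13%, interval 2.26% to 7.44%). These were the 2 chromosomes whose interval left out the overall 9.09%. Among 23 such intervals some can leave it out by chance alone. No test was made across chromosomes, since regions are not replicates.

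**Figure D4:**
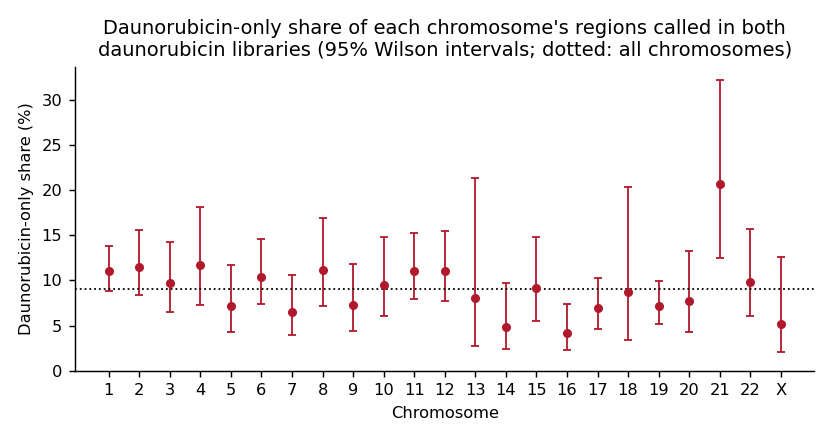
Share of daunorubicin-only regions (y axis, percent) among the regions called in both daunorubicin libraries, by chromosome (x axis). Points are shares, whiskers are 95% Wilson intervals and the dotted line is the overall 9.09%; chromosome 21 stands highest at 20.6% and chromosome 16 lowest at 4.13%.

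Taken 1 daunorubicin library at a time, the shares rest on much the same calls. Of the chromosome 21 peaks without any aclarubicin peak, 19 in each list, 13 belong to the 13 daunorubicin-only regions, and the chromosome was singled out for its high share, so these values are a description. Peaks without any aclarubicin peak were 25.7% of its peaks in replicate 1 (interval 17.1% to 36.7%) and 23.5% in replicate 2 (15.6% to 33.8%), where the whole lists had 14.1% and 16.1%. In replicate 2 chromosomes 13, 4 and 18 stood higher, at 26.0%, 25.8% and 24.4%. In the other direction chromosome 21 did not stand out: 37 of its 96 regions called in both aclarubicin libraries were aclarubicin-only (38.5%), near the 37.7% over all chromosomes. Its 13 daunorubicin-only regions were spread from chr21:9825493 to position 46396841, with folds of 3.98 to 9.49 in replicate 1 and 3.86 to 9.11 in replicate 2. Chromosome 21 had the highest share in 7 of the 8 settings for which this was recorded, the main one included, and chromosome 13 passed it without daunorubicin replicate 1. With lists of equal length the chromosome 21 share was 36.1%. The chromosome of highest share was not recorded for the other settings, among them a −log10 q of at least 10 and peaks merged up to 500 bp apart.

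Chromosome 22 held 15 daunorubicin-only regions of 152 (9.87%), close to the overall share, but they were unlike the rest in fold and background. Their median fold was 3.96 in replicate 1 and 3.90 in replicate 2, against 6.60 and 7.20 on the other chromosomes. Their background was 16.8 and 13.5 fragments, against 3.48 and 3.15 elsewhere, and their fragments over the summit were 63 and 52, against 29.5 and 29. Against the daunorubicin-only regions of other chromosomes, the low fold thus stood on more fragments and not on fewer.

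The 5 daunorubicin-only regions of lowest fold percentile were all on chromosome 22. At chr22:21997439-21997796 the folds were 2.02 and 2.26, from 78 and 67 fragments over a background of 38.1 and 29.1. At chr22:23604248-23604576 they were 2.33 and 2.90, from 75 and 83 fragments, and at chr22:21126427-21126693 they were 2.86 and 3.03, from 43 and 42. The remaining 2 were chr22:21948147-21948638, with folds of 3.15 and 3.23, and chr22:20285795-20286127, with folds of 3.59 and 3.54. Each of these 5 had more fragments than the median of the 443 in both replicates.

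**Figure D5:**
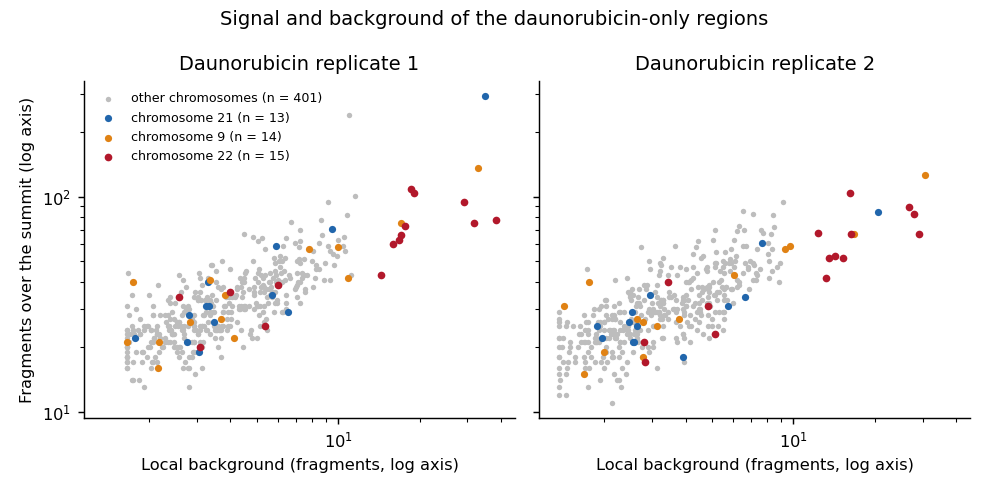
Fragments over the summit (y axis, log scale) against local background in fragments (x axis, log scale) of the 443 daunorubicin-only regions, in daunorubicin replicate 1 (left) and 2 (right). Each point is a region; 10 of the 15 regions on chromosome 22 and 2 of the 14 on chromosome 9 lie above a background of 10 in both replicates.

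In all, 13 daunorubicin-only regions had a background over 10 fragments in both replicates. Of these, 10 lay on chromosome 22 between 19418344 and 23604576, 2 on chromosome 9 at chr9:133667644-133668046 and chr9:133745381-133745728, and 1 on chromosome 21, the wide region named above. K562 cells carry the BCR-ABL1 fusion of chromosomes 22 and 9, and the joined parts are known to be present in many copies. The part that copy number has in the background was not tested. In the stretch of chromosome 22, the peaks of all 4 lists had a high background. Its median was 25.6 and 26.6 fragments in the aclarubicin lists and 18.2 and 16.7 in the daunorubicin lists, against 5.47, 5.66, 3.36 and 3.08 on the rest of the chromosome. Fragments over the summit were also many there, with medians of 102.5 and 105 over all peaks of daunorubicin replicates 1 and 2. Those peaks had median folds of 5.32 and 6.53. The 15 daunorubicin-only regions of chromosome 22 lay below both, with 63 and 52 fragments and folds of 3.96 and 3.90. Within the stretch 10 of 69 daunorubicin consensus regions were daunorubicin-only (14.5%, interval 8.07% to 24.7%), and outside it 5 of 83 (6.02%, 2.60% to 13.3%), with overlapping intervals. The stretch was drawn from the values of these regions, so the shares are a description. Over the whole genome, 13 of 161 consensus regions with such a background were daunorubicin-only (8.07%), against 9.13% of the others.

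Along the chromosomes, daunorubicin-only regions were no nearer to the ends than shared regions. Within 5 Mb of a chromosome end lay 51 of the 443 (11.5%, interval 8.87% to 14.8%), against 13.6% (12.6% to 14.7%) of the regions called in all 4 and 17.2% (15.95% to 18.5%) of the aclarubicin-only regions. Within 5 Mb of the longest peak-free stretch of a chromosome lay 46 (10.38%, 7.88% to 13.6%), against 7.69% (6.92% to 8.55%) and 7.76% (6.90% to 8.72%). On some chromosomes, such as chromosome 2, that stretch lies away from the centromere. These shares therefore do not measure nearness to centromeres. The gene-dense chromosome 19 had 32 of 445 (7.19%), and the gene-poor chromosomes 4, 13 and 18 together had 23 of 220 (10.5%, interval 7.07% to 15.2%).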

How the data were processed

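The deposited data are 1 CTCF peak list per library, made by the authors for each replicate separately, in the 10 columns of the narrowPeak layout without a header. The submitters' processing notes name Bowtie2, Picard, bedtools and the build GRCh37 (hg19); the peak caller, its threshold and any control library are not given in the sources used here. Peak lists hold no expression, so the cell line was not checked by marker genes. No peak ran past an hg19 chromosome end, by chromosome lengths entered by hand. The deposited columns used are the fold (a ratio over background), −log10 p, −log10 q and the positions; the deposited score (10 times the −log10 q) was not used.

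Regions were merged at 1 bp of overlap, and distances run edge to edge. No filter for regions of known artefact signal was applied here, so whether any named region lies in one was not tested. Fragments k and background λ were solved from fold = (k + 1)/(λ + 1) and the Poisson probability of more than k, an assumed formula; the solved k was whole, to within 0.02, for 99.6% or more of the peaks in every list. With known k simulated for 5886 and 6638 peaks, 100% were recovered and 0% of fractional values came out whole. Merging and distances were tested against bedtools 2.31.1. Intervals are 95% Wilson and treat regions as independent, which neighbours are not. Exact tests of 2 against 2 libraries cannot go below p = 0.333, and none was made.

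The rule and lists were chosen with earlier results of these data known. Named regions are the 10 strongest and 5 weakest by mean fold percentile, the 5 farthest from and 5 closest to an aclarubicin peak, the 3 widest and the first 3 pairs. The stretch of high background was chosen after its values were seen. Annotation, motif and gene-list results need a genome of this build and were not analysed here. Python 3.11.15, numpy 2.4.6, pandas 2.3.3, scipy 1.17.1 and matplotlib 3.10.9 were used.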

Additional observations from a re-analysis of the deposited data

How the results depend on the processing

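The number of daunorubicin-only regions stayed between 399 and 487 under stricter thresholds, wider merging, a reciprocal overlap of 50% and summits within 100 bp. It was 984 (21.2% of the daunorubicin consensus) with lists of equal length. Leaving out each replicate gave 578 to 1071, or 11.9% to 16.1%, since fewer lists then define the class. The share was 11.2% with a fold of at least 5. No paired analysis was possible because these results come from no test; with the replicate block, comparing same-numbered libraries, the count is 443 by construction.

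The median fold percentile, 38.8 as the mean of both libraries, was 49.2 at a −log10 q of at least 10, 43.3 at a fold of at least 5, 45.5 with equal lists and 26.5 to 40.8 without each replicate. Percentiles are of the whole lists, so a stricter threshold raises them. The width difference was -49 bp, -49.5 bp and -53.5 bp under these 3 settings and -65 to -50.5 bp without each replicate, and kept its sign throughout. The median distance to an aclarubicin peak was 29934 bp with peaks merged up to 500 bp apart and 30677.5 bp at a −log10 q of at least 5. It was 38209 bp at 10, 37246 bp at a fold of at least 5, 69490 bp with equal lists and 29541 to 43277 bp without each replicate. Without the 13 regions of high background, an alternative chosen after seeing the data, it was 30677.5 bp.

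The share within 10 kb of an aclarubicin peak was 22.8% at a −log10 q of at least 10, 23.4% at a fold of at least 5, 13.4% with equal lists and 22.5% to 28.04% without each replicate. It was 4.97% within 1 kb, 17.4% within 5 kb and 63.2% within 50 kb. Another daunorubicin-only region lay within 100 kb of 9.03%, within 10 kb of 0.903% and within 1 Mb of 43.6%. The chromosome 21 share was 36.1% with equal lists. Planned results on motifs, genes and gene lists need an hg19 genome and were not run.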
